A study of Gorilla gorilla gorilla with 13 samples.

Results

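The 9 genes described here encode transcription factors that pattern the telencephalon, the front part of the embryonic brain from which the cerebral cortex forms. They are the nuclear receptors NR2F1 and NR2F2, the homeobox factors EMX1, OTX1 and MEIS2, the doublesex-type factors DMRTA2 and DMRT3, and the zinc-finger factors SP8 and FEZF1. They were picked by symbol from a table of read counts for 18137 genes on the human build hg38, and all 9 are rows of it. All 9 were among the 16804 genes that passed the filter on low counts.

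RNA was measured in 13 libraries from gorilla cerebral organoids, which are brain-like tissue cultures grown from pluripotent stem cells, here the induced pluripotent line GC1. Organoids were collected at week 8 of culture, within 3 days, and cells were separated by flow cytometry into 4 populations. These were BCL11B+ neurons (N, 2 libraries), basal intermediate progenitors (bIP, 3 libraries), basal radial glia (bRG, 4 libraries) and apical radial glia (aRG, 4 libraries). No population carried a treatment or a genotype of its own, and all rest on this 1 line. Each library was made from RNA of 10000 cells by Smart-seq2, a full-length method without molecular identifiers, with 12 to 17 cycles of PCR. Apart from BCL11B, the antigens used for the sort are not given. Whether the libraries of 1 population stem from different cultures is not stated either, and p-values therefore reflect the spread among these libraries, which may be technical.

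In the early cortex, signalling centres at the rostral pole and at the dorsal midline set up graded levels of transcription factors in the radial glia, the stem cells that line the ventricle. NR2F1 is high caudally and limits frontal identity in mouse, SP8 is high rostrally, and DMRTA2, DMRT3 and the EMX genes favour dorsal and medial fates. Radial glia give rise to neurons either directly or through basal intermediate progenitors.

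Total counts on hg38 lay between 5464721 and 12524938 per library. bRG library 3 stood apart from the rest, at -67.7 on the second principal component against -6.58 to 18.3 in the other libraries, and the nuclear RNA MALAT1 took 21.3% of its gorGor6 counts against 6.35% to 10.8% elsewhere. The labels were checked by the summed level of marker lists in CPM, a count divided by its library's TMM-adjusted size. The 10 radial glia markers summed to 128 to 165 CPM in N, 140 to 171 in bIP, 2450 to 4380 in bRG and 3150 to 4230 in aRG. Excitatory neuron markers, 10 genes, summed to 6010 to 6090 CPM in N, 3800 to 4080 in bIP, 498 to 734 in bRG and 474 to 772 in aRG. EOMES, the defining factor of intermediate progenitors, averaged 6.26 ± 0.677 CPM in N, 85.3 ± 49.1 in bIP, 367 ± 92.9 in bRG and 143 ± 84.4 in aRG (SD), so the data go partly against the label of the bIP libraries. The sum of 9 intermediate progenitor markers was likewise 516 to 911 CPM in bIP, 1090 to 1450 in bRG and 609 to 878 in aRG. The bRG label was not borne out by 7 markers of outer radial glia, another name for basal radial glia. They summed to 1160 to 1460 CPM in N, 623 to 943 in bIP, 1240 to 2220 in bRG and 1760 to 2400 in aRG. Much of this sum was PTPRZ1, at 1160 ± 199 CPM in N, 907 ± 298 in bRG and 1100 ± 243 in aRG (SD). Of the 7, only TNC had a higher mean in bRG (91 ± 23.5 CPM) than in aRG (86.7 ± 16.9 CPM). HOPX, a main marker among them, averaged 65.7 ± 29.1 CPM (SD) in the 4 bRG libraries and 150 ± 67.4 CPM in the 4 of aRG. The edgeR test called 0 of the 7 in bRG against aRG. As it called only 1.26% of all genes there, this count does not bear on the label. The bIP libraries also held 1370 to 3640 CPM of 8 Cajal-Retzius markers, genes of the early reelin-secreting neurons of the cortical surface, against 97.4 to 242 CPM in the other populations. In bulk RNA, fewer cells of a type and less RNA per cell cannot be told apart, and this holds for every level below.

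The 9 factors fell into a radial glia group and an exception. NR2F1, EMX1, OTX1, MEIS2, SP8, DMRTA2 and DMRT3 had their highest mean levels in the 2 kinds of radial glia, and their means in bIP were 2.24 to 6.21 times lower than in aRG. NR2F2 had its highest mean in bIP. FEZF1 was low and spread widely among the libraries of a population. By the edgeR quasi-likelihood test over all 4 populations, 8 of the 9 differed at an adjusted p under 0.05, against 22.5% of all genes tested. FEZF1 was the exception, with an edgeR adjusted p of 0.388.

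**Figure D1:**
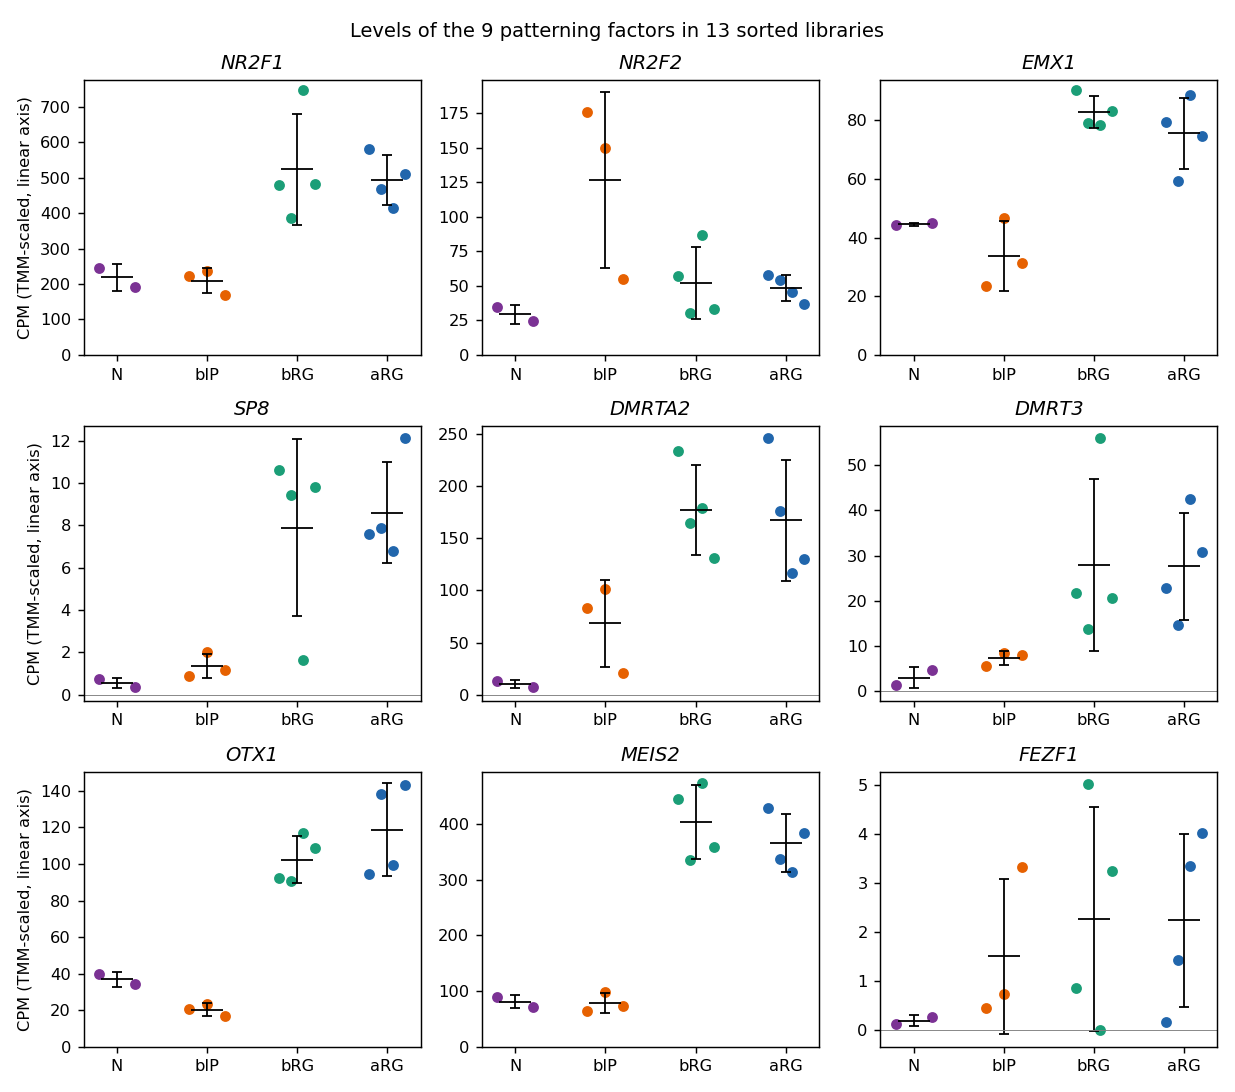
Level of each factor (CPM after TMM scaling, linear axes from 0 that differ between panels) in every library of N, bIP, bRG and aRG. Points are libraries, horizontal lines are means and bars are SD. For 7 factors the radial glia points lie above the bIP and N points, apart from SP8 in 1 bRG library at 1.65 CPM. NR2F2 is highest in 2 bIP libraries, at 150 and 176 CPM.

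Between the 2 kinds of radial glia no member passed the test. In bRG against aRG, the edgeR test called 0 of 9 members, 0 had an unadjusted p under 0.05, and DESeq2 and limma also called 0, while edgeR called 1.26% of all genes. The libraries of every member overlapped between bRG and aRG, where 5.52% of all genes did not overlap. Log2 fold changes lay between -0.22 for OTX1 (SE 0.217, edgeR adjusted p 0.822) and 0.14 for MEIS2 (SE 0.211, edgeR adjusted p 0.888). The estimate for NR2F1 was 0.08 (SE 0.229), with 523 ± 156 CPM in bRG and 494 ± 70.7 CPM in aRG (SD, n = 4 each). Standard errors were wider for SP8 (0.523), DMRT3 (0.452) and FEZF1 (0.996), so larger differences in these 3 were not detectable at this depth and spread. The bRG libraries held 224 to 1260 CPM of 6 choroid plexus markers, against 1620 to 7820 CPM in aRG. Most of this was TTR, at 628 ± 423 CPM in bRG and 4510 ± 2530 in aRG (SD), the only 1 of the 6 called (edgeR adjusted p 0.0163). They also held 125 to 163 CPM of 7 mesenchymal markers, against 168 to 397 CPM in aRG. Of these only COL1A1 was called, lower in bRG (edgeR adjusted p 0.00587), and only PDGFRA had a higher mean in bRG. No gene of either list was at 0, and the part of these markers in the values was not tested. Without bRG library 3 the estimates of NR2F1, NR2F2, SP8 and DMRT3 changed sign, to -0.14, -0.27, 0.21 and -0.58 (edgeR adjusted p 0.85, 0.825, 0.889 and 0.64), and none was called.

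In bIP against aRG, the edgeR test called 8 of 9 members, against 18.4% of all genes, with 7 lower in bIP (9.98% of all genes) and 1 higher (8.47% of all genes). Libraries of 7 members did not overlap, against 32.4% of all genes. In bIP against bRG it also called 8, against 16.7% of all genes, with 7 lower (8.44% of all genes) and 1 higher (8.25%), and 6 members did not overlap, against 26% of all genes. The median log2 fold change of the 9 members was -1.29 in bIP against aRG and -1.37 in bIP against bRG, and over all genes it was -0.0351 and -0.0914. N against bRG gave 7 calls, all lower in N, against 19.8% of all genes called and 9.13% called lower. N against aRG gave 6, all lower, against 19.8% called and 9.37% called lower. Libraries of 7 members did not overlap between N and bRG, against 36.5% of all genes, and 8 did not overlap between N and aRG, against 44.1%. The comparisons with aRG share the aRG libraries and those with bRG share the bRG libraries. Without bIP library 1 the counts dropped to 5 in bIP against aRG and 4 in bIP against bRG, and without the unnumbered N library 4 were called in N against bRG.

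**Figure D2:**
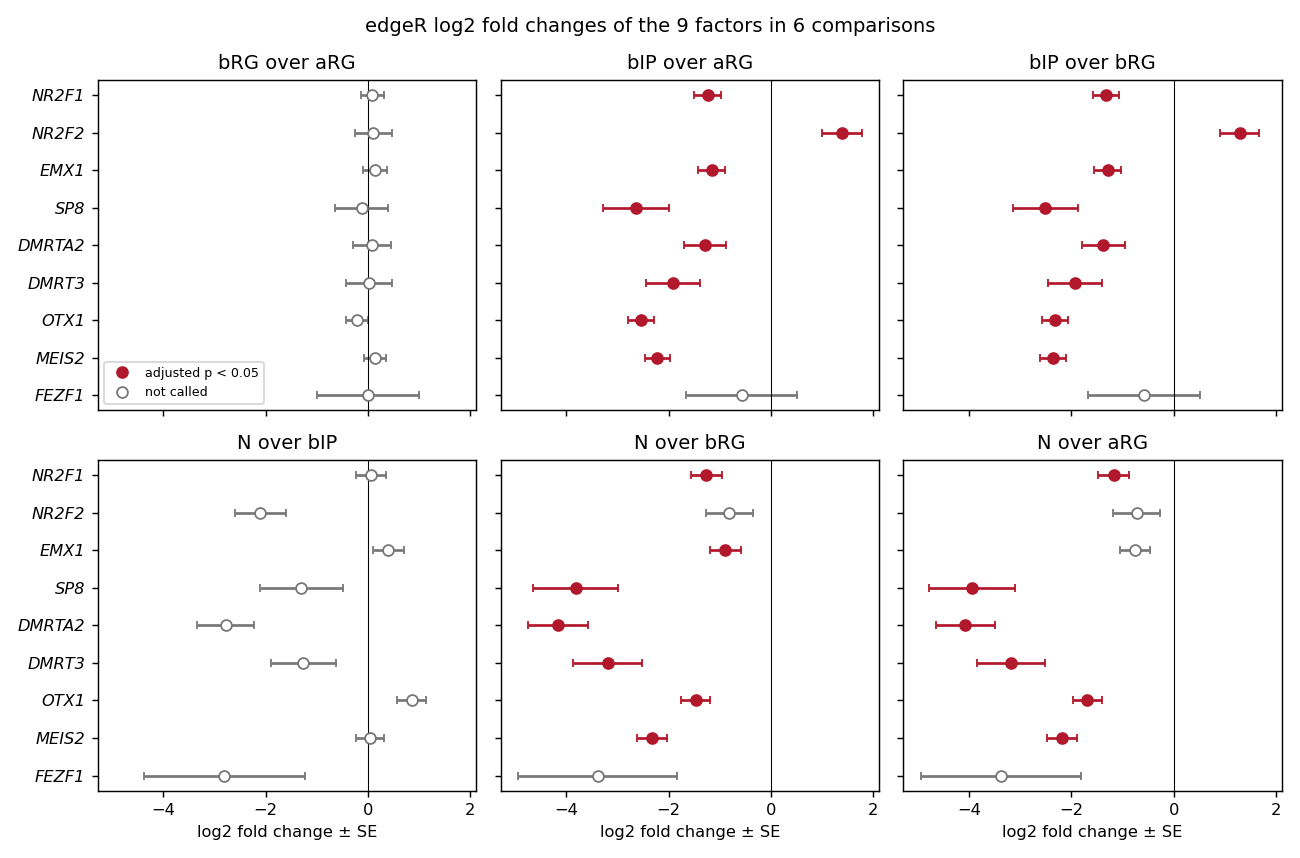
edgeR log2 fold change (first-named population over the second) with its SE for each factor in 6 comparisons. Filled points have an adjusted p under 0.05. No point is filled in bRG over aRG or N over bIP, 8 are filled in each bIP comparison with radial glia, and NR2F2 is the only filled point above 0.

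NR2F1, also called COUP-TFI, represses frontal and motor area genes in the mouse cortex. NR2F1 measured 245 and 192 CPM in N libraries, 224, 236 and 169 CPM in bIP libraries, 479, 385, 747 and 482 CPM in bRG libraries, and 582, 469, 414 and 510 CPM in aRG libraries. All 5 N and bIP libraries lay below all 8 radial glia libraries, and the N and bIP libraries overlapped each other. NR2F1 fell 2.36-fold in bIP against aRG (log2 change -1.24, SE 0.257, edgeR adjusted p 0.0019) and 2.5-fold against bRG (edgeR adjusted p 0.00139). It fell 2.39-fold in N against bRG (edgeR adjusted p 0.00553) and 2.26-fold against aRG (edgeR adjusted p 0.00831), but neither N call held without the unnumbered N library (edgeR adjusted p 0.113 and 0.141). The highest radial glia value was that of bRG library 3. Without it NR2F1 still fell in bIP against bRG, by 1.10 on the log2 scale (edgeR adjusted p 0.00123).

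NR2F2, or COUP-TFII, is the closest paralog of NR2F1 and marks caudal ganglionic eminence, amygdala and temporal cortex in mammals. NR2F2 measured 34.4 and 24.5 CPM in N, 176, 150 and 54.9 CPM in bIP, 57.2, 30.6, 86.9 and 33.3 CPM in bRG, and 57.5, 54.5, 45.6 and 36.9 CPM in aRG. bIP libraries 1 and 2 stood above every other library, whereas bIP library 3 lay within the range of the radial glia. NR2F2 rose 2.61-fold in bIP against aRG (log2 change 1.39, SE 0.387, edgeR adjusted p 0.0164) and 2.44-fold against bRG (1.29, SE 0.386, edgeR adjusted p 0.028). In N the level was lower than in either radial glia population without passing the test (N against bRG -0.82, edgeR adjusted p 0.23, and N against aRG -0.72, edgeR adjusted p 0.312). N lay below all bIP libraries (log2 change -2.11, SE 0.504), with an edgeR adjusted p of 0.163.

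The rise of NR2F2 in bIP rested on bIP libraries 1 and 2. Without bIP library 1 the log2 fold change against aRG was 1.08 (edgeR adjusted p 0.12), and without bIP library 2 it was 1.25 (edgeR adjusted p 0.0752). Against bRG the edgeR call also ended without bRG library 2 (adjusted p 0.064) or 4 (0.0816), without bIP library 1 (0.17) or 2 (0.114), and when bIP and bRG were fitted alone (0.0672). It ended too with a term for numbers 1 and 2 against 3 and 4 of the labels (log2 change 1.13, edgeR adjusted p 0.0591). Among libraries numbered 1 and 2 in the labels the mean log2 CPM of NR2F2 was 1.95 higher in bIP than in bRG, and 0.03 higher among those numbered 3 and 4. The same bIP libraries led in Cajal-Retzius RNA, whose 8 markers summed to 3640, 2600 and 1370 CPM in bIP libraries 1, 2 and 3. None of the 8 was at 0 in any population, and RELN alone gave 3050, 2050 and 1050 CPM in the same bIP libraries. The part of this RNA in the NR2F2 values was not tested. Other genes were lowest in bIP library 3 as well, among them EOMES, at 98.2, 127 and 31 CPM in bIP libraries 1, 2 and 3. EMX2 measured 64.6, 59.7 and 22.7 CPM in the same libraries. The sum of excitatory neuron markers was instead highest in bIP library 3, at 4080 CPM against 3800 and 3860 CPM. NR2F2 could be followed on hg38 alone, since its row in the gorGor6 table was listed at 0 in every library where hg38 gave 6978 counts in all.

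The pair can be set against each other within a library as NR2F2 counts in percent of NR2F1 counts, a ratio that is not corrected for length and serves only to compare libraries. It was 14% and 12.8% in N, 78.7%, 63.4% and 32.5% in bIP, 11.9%, 7.95%, 11.6% and 6.91% in bRG, and 9.87%, 11.6%, 11% and 7.23% in aRG. Every bIP library, number 3 included, stood above all others in this ratio, and N lay slightly above the radial glia. In bIP library 3 this came with the lowest NR2F1 level of the 13 libraries, 169 CPM. Its NR2F2 level, 54.9 CPM, lay within the range of the radial glia. As a rank, NR2F2 went bIP, bRG, aRG, N from high to low, with only bIP and bRG differing among neighbours by the test, while NR2F1 went bRG, aRG, N, bIP, with only aRG and N differing.

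**Figure D3:**
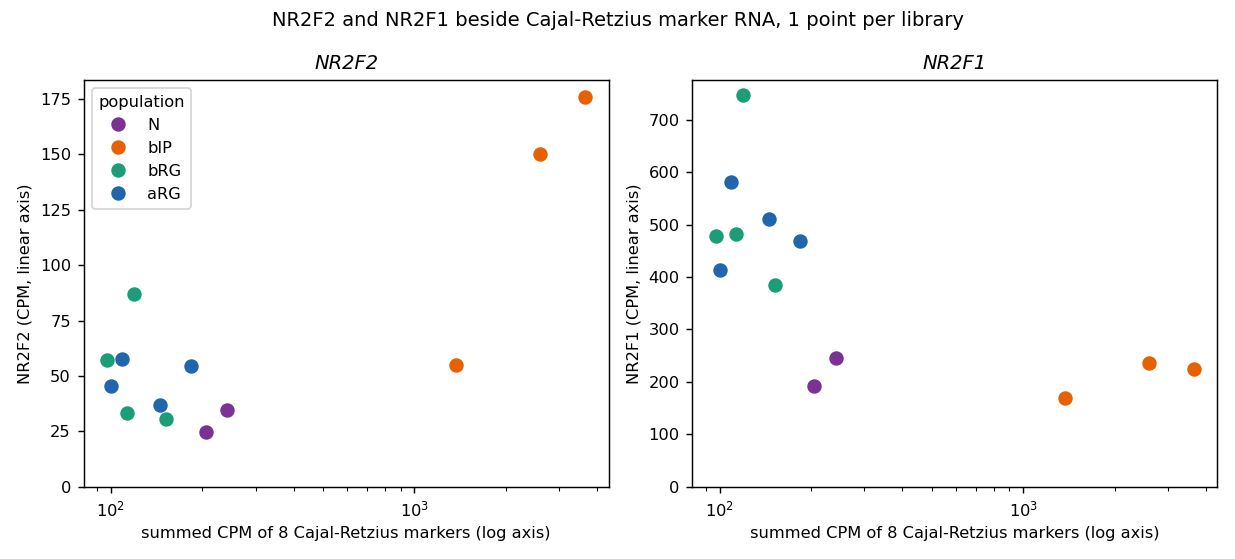
Level of NR2F2 and of NR2F1 (CPM, linear axes) against the summed CPM of 8 Cajal-Retzius markers (log axis), 1 point per library, coloured by population. The 3 bIP libraries lie at 1370 to 3640 CPM of marker RNA. Their NR2F2 level is 54.9 CPM at the lowest marker sum and 176 CPM at the highest, while their NR2F1 level stays between 169 and 236 CPM.

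EMX1 is a homeobox gene of the dorsal telencephalon whose expression marks the excitatory lineage of the cortex. EMX1 measured 44.2 and 45 CPM in N, 23.4, 46.7 and 31.3 CPM in bIP, 90.4, 79.2, 78.3 and 83.2 CPM in bRG, and 79.3, 59.5, 88.8 and 74.8 CPM in aRG. The radial glia libraries were all above the N and bIP libraries, and N lay inside the range of bIP. EMX1 fell 2.24-fold in bIP against aRG (log2 change -1.16, SE 0.26, edgeR adjusted p 0.0036) and 2.45-fold against bRG (edgeR adjusted p 0.00192). In N the drop was smaller, with an edgeR adjusted p of 0.0423 against bRG (log2 change -0.89, SE 0.297) and 0.0812 against aRG (-0.76, SE 0.295). The call against bRG was lost in 11 of the 21 alternatives tried, 7 of them the removal of 1 library (aRG 3, bRG 1, 2 or 4, bIP 3 or either N library), where the edgeR adjusted p ran up to 0.21. Against aRG a call was gained without bRG library 3 (edgeR adjusted p 0.0497) and when N and aRG were fitted alone (edgeR adjusted p 0.0457). It was also gained with DESeq2 (DESeq2 adjusted p 0.0292) and with limma and library weights (limma adjusted p 0.0436).

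OTX1, a relative of fly orthodenticle, acts in forebrain growth and later in deep-layer cortical neurons. OTX1 measured 39.7 and 34.1 CPM in N, 20.6, 23.6 and 17 CPM in bIP, 92.5, 90.5, 117 and 109 CPM in bRG, and 94.7, 138, 99.4 and 143 CPM in aRG. The populations formed 3 steps that did not overlap, with bIP lowest, N next and both radial glia populations together at the top. OTX1 fell 5.82-fold in bIP against aRG (log2 change -2.54, SE 0.258, edgeR adjusted p 1.46e-06) and 5.01-fold against bRG (edgeR adjusted p 6.34e-06). It fell 3.22-fold in N against aRG (edgeR adjusted p 0.000325) and 2.77-fold against bRG (edgeR adjusted p 0.00119). The step between N and bIP was 0.85 on the log2 scale (SE 0.281), with an unadjusted p of 0.00729 and an edgeR adjusted p of 0.476.

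MEIS2 is a TALE homeobox factor that binds DNA with PBX partners and is known from striatal, retinal and limb development. MEIS2 measured 89.2 and 72.3 CPM in N, 63.8, 98.7 and 73.2 CPM in bIP, 445, 335, 473 and 359 CPM in bRG, and 429, 338, 313 and 384 CPM in aRG. The lowest radial glia library was at 313 CPM and the highest N or bIP library at 98.7 CPM. MEIS2 fell 4.66-fold in bIP against aRG (log2 change -2.22, SE 0.246, edgeR adjusted p 3.89e-06) and 5.13-fold against bRG (edgeR adjusted p 4.04e-06). In N it fell 4.53-fold against aRG (edgeR adjusted p 2.56e-05) and 4.99-fold against bRG (edgeR adjusted p 1.97e-05). All 4 calls of MEIS2 held in every alternative tried, as did both bIP calls of NR2F1, EMX1 and OTX1.

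DMRTA2, also known as DMRT5, is needed for the cortical hem and the hippocampal primordium in mouse. DMRTA2 measured 12.7 and 7.18 CPM in N, 83.2, 101 and 20.9 CPM in bIP, 234, 165, 179 and 131 CPM in bRG, and 246, 176, 117 and 130 CPM in aRG. The order was radial glia, bIP and N without overlap between these 3 steps, and bIP library 3 came closest to N. DMRTA2 fell 17.9-fold in N against bRG (log2 change -4.16, SE 0.581, edgeR adjusted p 5.71e-05) and 16.8-fold against aRG (-4.07, SE 0.578, edgeR adjusted p 5.14e-05), and both calls held in every alternative tried. In bIP it fell 2.44-fold against aRG (edgeR adjusted p 0.0385) and 2.59-fold against bRG (edgeR adjusted p 0.0306). Those bIP calls were less firm: without bIP library 3 the log2 fold changes were -0.86 and -0.94 (edgeR adjusted p 0.12 and 0.0936), and without aRG library 1 the first was -1.04 (edgeR adjusted p 0.121). The call against aRG also ended without aRG library 2 (edgeR adjusted p 0.0661), aRG library 4 (0.0508) or bIP library 1 (0.0689), and that against bRG without bRG library 1 (0.0768) or bIP library 1 (0.0594). On gorGor6 neither was called (edgeR adjusted p 0.0681 against aRG and 0.0659 against bRG). N lay below bIP by 2.78 on the log2 scale (SE 0.552), with an edgeR adjusted p of 0.0698.

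DMRT3, a relative of DMRTA2, is graded from medial to lateral cortex in mouse. DMRT3 measured 1.35 and 4.66 CPM in N, 5.52, 8.38 and 8.09 CPM in bIP, 21.7, 13.7, 55.9 and 20.6 CPM in bRG, and 22.9, 14.6, 42.4 and 30.8 CPM in aRG. N was lowest and bIP next, both below all radial glia libraries, among which the values spread 4.08-fold in bRG and 2.91-fold in aRG. DMRT3 fell 3.77-fold in bIP against aRG (log2 change -1.91, SE 0.525, edgeR adjusted p 0.0146) and 3.8-fold against bRG (edgeR adjusted p 0.016). It fell 9.06-fold in N against aRG (-3.18, SE 0.67, edgeR adjusted p 0.00204) and 9.13-fold against bRG (edgeR adjusted p 0.00225). Without bRG library 3, the highest of all, the fall in bIP against bRG was 1.34 on the log2 scale (edgeR adjusted p 0.0437). Without bIP library 1 the edgeR adjusted p was 0.0772 against aRG and 0.081 against bRG, without aRG library 3 it was 0.0521 against aRG, and without N library 1 it was 0.0516 and 0.0511 for N.

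SP8 is a zinc-finger factor of the rostral cortex that sustains FGF8 signalling in mouse. SP8 measured 0.735 and 0.373 CPM in N, 0.896, 2.01 and 1.17 CPM in bIP, 10.6, 9.45, 1.65 and 9.8 CPM in bRG, and 7.59, 7.85, 6.8 and 12.1 CPM in aRG. Of the 8 radial glia libraries, 7 stood above all N and bIP libraries, and bRG library 3 lay within the range of bIP. The values rest on few reads, 6 and 4 counts in N and 6 to 19 in bIP. SP8 fell 6.21-fold in bIP against aRG (log2 change -2.64, SE 0.637, edgeR adjusted p 0.00636) and 5.69-fold against bRG (edgeR adjusted p 0.00987). It fell 15.4-fold in N against aRG (-3.94, SE 0.835, edgeR adjusted p 0.00212) and 14.1-fold against bRG (edgeR adjusted p 0.00297). Without the unnumbered N library the N values had an edgeR adjusted p of 0.0542 and 0.0679, and the bIP call against bRG ended without bIP library 1 (0.0569) or 3 (0.0503) and on gorGor6 (0.0625). Without bRG library 3 the fall in bIP against bRG was 2.84 on the log2 scale (edgeR adjusted p 0.000332).

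FEZF1 is a zinc-finger repressor of the rostral forebrain and of olfactory neurons. FEZF1 had 220 counts in all 13 libraries together. It measured 0.123 and 0.28 CPM in N (1 and 3 counts), 0.448, 0.742 and 3.33 CPM in bIP, 0.854, 5.01, 0 and 3.24 CPM in bRG, and 0.181, 1.43, 3.35 and 4.02 CPM in aRG. High and low libraries were found side by side in bIP, bRG and aRG, and the 4 populations overlapped except N with bIP. The 0 counts in bRG library 3 allow a level of up to 0.354 CPM, that of 3 counts, which is below the 3 other bRG libraries. FEZF1 was called in no comparison by edgeR, with an adjusted p of 0.81 in bIP against aRG, 0.14 in N against bRG and 0.15 in N against aRG. Without bRG library 3 it was called lower in N against bRG (log2 change -3.80, edgeR adjusted p 0.0375).

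Setting N against bIP asks which factors differ between these 2 neuron-rich populations. The edgeR test called 0 of 9 members there, against 0.113% of all genes, 3 members had an unadjusted p under 0.05 (NR2F2, DMRTA2 and OTX1), and DESeq2 called 2 and limma 1. The libraries of 6 members did not overlap, against 31% of all genes, with 5 lower in N (NR2F2, DMRTA2, DMRT3, SP8 and FEZF1) and OTX1 higher. NR2F1 and MEIS2 were within 0.06 of 0 on the log2 scale (SE 0.296 and 0.273), and their sign turned when counts were scaled to totals (-0.19 and -0.20), a scaling that put the median of all genes at -0.175. Without bRG library 3, edgeR called NR2F2 (adjusted p 0.0434) and DMRTA2 (0.0362) lower in N, and without bIP library 3 it called the same 2 (0.0321 and 0.00197). With only 2 N libraries, a difference in this comparison had to be large to pass the test.

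Within populations the factors varied to different degrees. The coefficient of variation over the 4 aRG libraries was 14% for MEIS2, 14.3% for NR2F1, 16.2% for EMX1, 19.1% for NR2F2 and 21.3% for OTX1. It was 27.6% for SP8, 34.8% for DMRTA2, 42.8% for DMRT3 and 78.5% for FEZF1. In bRG it was lowest for EMX1 (6.67%) and again highest for FEZF1 (100%). bRG library 3 was the highest bRG library for NR2F1, NR2F2, DMRT3, OTX1 and MEIS2 and the lowest for SP8, FEZF1 and, by a narrow margin, EMX1. bIP library 3 was the lowest bIP library for NR2F1, NR2F2, DMRTA2 and OTX1 and the highest for FEZF1.

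**Figure D4:**
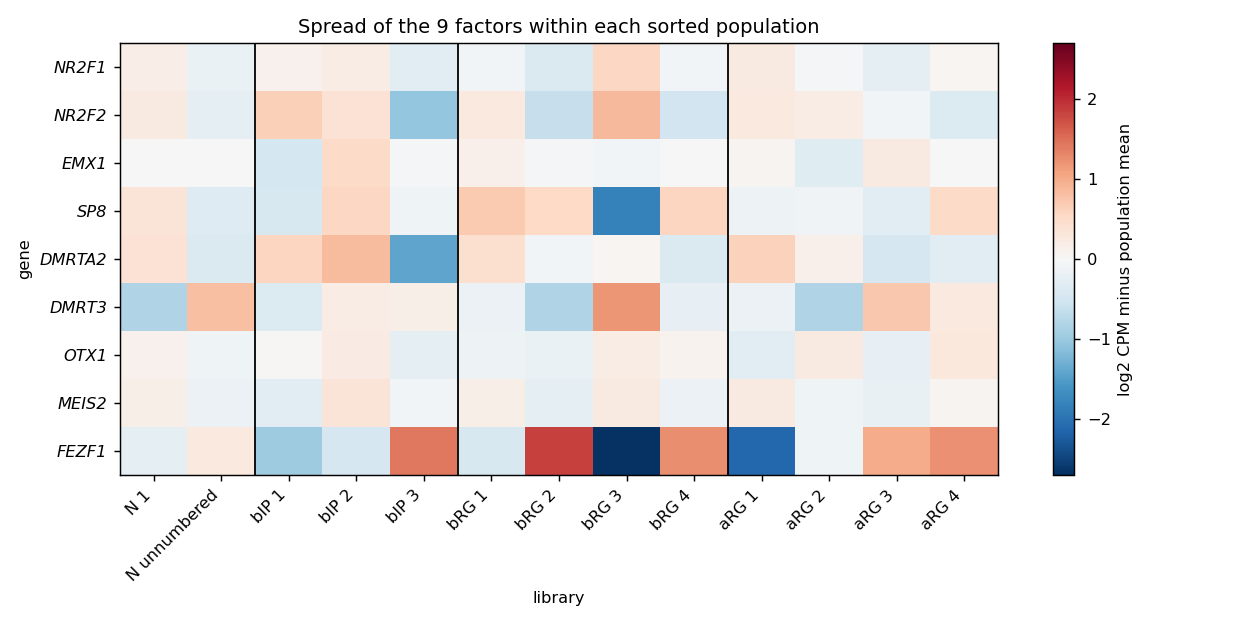
Deviation of each library from the mean log2 CPM of its population, for each factor, as a colour scale from blue (below) to red (above). Vertical lines separate N, bIP, bRG and aRG. FEZF1 shows the widest deviations, -2.66 in bRG library 3 and 1.84 in bRG library 2, and SP8 stands at -1.83 in bRG library 3.

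The closest relatives of the members did not all share their pattern. EMX2, which acts with EMX1 in cortical growth and medial fate, averaged 16.7 ± 6.66 CPM in N, 49 ± 23 in bIP, 75.9 ± 21.7 in bRG and 86.2 ± 12.4 in aRG (SD). EMX2 fell in N against bRG (log2 change -2.18, SE 0.429, edgeR adjusted p 0.00131) and against aRG (-2.37, SE 0.433, edgeR adjusted p 6e-04). In bIP, where EMX1 fell, EMX2 gave -0.82 against aRG (SE 0.343, edgeR adjusted p 0.118) and -0.63 against bRG (SE 0.341, edgeR adjusted p 0.242). OTX2, which specifies forebrain and choroid plexus, averaged 0.216 CPM in N, 5.05 ± 1.28 in bIP, 17.7 ± 4.79 in bRG and 47.8 ± 23.5 in aRG. OTX2 fell in bIP against aRG (-3.24, SE 0.44, edgeR adjusted p 3.26e-05) and less against bRG (-1.8, SE 0.416, edgeR adjusted p 0.00528). It is also 1 of the 6 choroid plexus markers summed above. Among aRG libraries OTX2 and TTR were both highest in library 3 (75.2 and 7630 CPM) and lowest in library 2 (23.7 and 1540 CPM). The part of choroid plexus RNA in the OTX2 values was not tested. N, with 2 counts of OTX2 in each library, was called lower than bRG (edgeR adjusted p 6.96e-06). It was also called lower than bIP (log2 change -4.48, SE 0.705, edgeR adjusted p 0.0106), where limma with library weights called 0 of the family relatives. The OTX1 mean was higher in N than in bIP, without a call.

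DMRTA1, a relative of DMRTA2 with 7 and 2 counts in N, fell in bIP against aRG (log2 change -2.6, SE 0.806, edgeR adjusted p 0.0304). It also fell in N against aRG (-3.81, SE 1.06, edgeR adjusted p 0.0153). MEIS1 gave -1.28 and -2.02 in these comparisons without a call (edgeR adjusted p 0.3 and 0.144). MEIS3 and FEZF2, chosen after their values were seen, went the other way. MEIS3 averaged 350 ± 125 CPM in N, 313 ± 105 in bIP, 184 ± 70.3 in bRG and 122 ± 49.8 in aRG, and rose in bIP against aRG (log2 change 1.35, SE 0.373, edgeR adjusted p 0.0149) and in N against aRG (1.52, SE 0.409, edgeR adjusted p 0.0128). FEZF2, which specifies subcerebral projection neurons, averaged 279 ± 120 CPM in N, 155 ± 23.4 in bIP, 133 ± 33.2 in bRG and 136 ± 43.4 in aRG. It rose in N against bRG (1.08, SE 0.318, edgeR adjusted p 0.0228) and against aRG (1.04, SE 0.319, edgeR adjusted p 0.0265). Whether a relative's fold change differs from that of its member was not tested. Of the 25 family relatives tested, 6 were lower and 1 higher in bIP against aRG, where 9.98% of all genes were lower and 8.47% higher. In N against aRG 7 were lower and 3 higher, where 19.8% of all genes were called in either direction and 9.37% were lower. The calls in bIP against aRG numbered 4 without bIP library 1 and 3 without bIP library 2, all lower, and those in N against aRG numbered 5 without N library 1, also all lower.

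**Figure D5:**
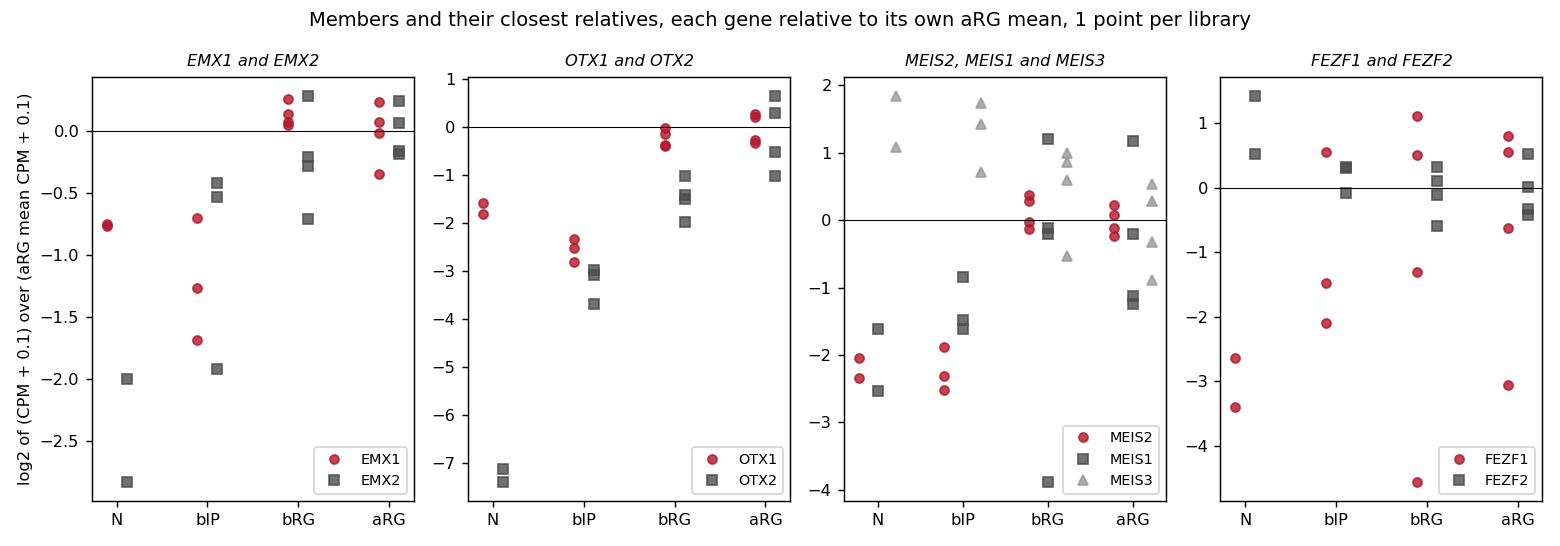
log2 of CPM + 0.1 relative to each gene's own aRG mean, 1 point per library, for EMX1, OTX1, MEIS2 and FEZF1 and their closest relatives. EMX2 falls furthest in N while EMX1 is lowest in bIP, and OTX2 drops below OTX1 in N. MEIS3 and FEZF2 lie above 0 in N where MEIS2, MEIS1 and FEZF1 lie below it.

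Long RNAs named as antisense to members or relatives were read from the gorGor6 table, where the use of strand is not given, so reads of a gene and its antisense partner cannot be told apart. NR2F1-AS1 measured 149 and 147 CPM in N, 135, 146 and 150 CPM in bIP, 123 to 214 CPM in bRG and 113 to 169 CPM in aRG. Its libraries overlapped between all populations and edgeR called it in no comparison (bIP against bRG -0.15, SE 0.25, adjusted p 0.852), although NR2F1 fell. NR2F2-AS1 measured 4.72 and 4.82 CPM in N, 18.9 to 24.3 CPM in bIP, 15.5 to 31.9 CPM in bRG and 11.5 to 31.5 CPM in aRG. It fell in N against bRG (log2 change -2.21, SE 0.476, edgeR adjusted p 0.00372) and gave -0.10 in bIP against bRG (SE 0.373, edgeR adjusted p 0.948), where NR2F2 rose. EMX2OS fell in N against bRG (-1.96, SE 0.328, edgeR adjusted p 0.000342), as EMX2 did.

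Among 11 other patterning factors of cortical progenitors, 7 were lower and none higher in bIP against aRG, where 9.98% of all genes were called lower. In N against aRG 8 were lower and 2 higher, where 19.8% of all genes were called in either direction and 9.37% were called lower. PAX6, the rostrolateral homeobox factor of radial glia, averaged 16.7 ± 4.26 CPM in N, 18 ± 1.97 in bIP, 768 ± 219 in bRG and 672 ± 155 in aRG. Its log2 fold change was -5.41 in bIP against bRG (SE 0.327, edgeR adjusted p 3.28e-08). GLI3, SALL1 and NR2E1 fell by 4.57, 5.43 and 5.98 in bIP against aRG on the same scale, all more than any of the 9 members. The median over these 11 genes was -3.35 in bIP against aRG, beside -1.29 for the 9 members. FEZF2 was among those that rose in N against aRG.

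Signals that set up the members' gradients were listed as well. Over all genes 9.98% were lower and 8.47% higher in bIP against aRG, and 9.13% were lower in N against bRG. Of 16 rostral FGF signals and readouts, 7 were lower and none higher in bIP against aRG, among them the receptors FGFR3 (-3.16, SE 0.253, edgeR adjusted p 1.27e-07), FGFR2 and FGFR1 and the FGF-induced factor ETV5 (-3.51, SE 0.494, edgeR adjusted p 4.76e-05). Of 16 genes of the cortical hem and its Wnt and BMP signals, 5 were lower and 1 higher, with BMP7 falling by 3.65 (SE 0.292, edgeR adjusted p 1.27e-07). In N against bRG, 7 of each list were lower, and LMX1A, a hem factor, and WNT8B were among those of the hem. There 2 of the FGF list and 0 of the hem list were higher, where 19.8% of all genes were called in either direction. Leaving out 1 library moved these counts: in bIP against aRG, 4 FGF genes were lower without aRG library 2 or bIP library 1 or 2, and 3 hem genes without aRG library 3 or 4. In N against bRG, 4 FGF genes were lower without either N library, and 3 hem genes without N library 1. Of 14 area-related genes of cortical neurons, 6 were higher and 2 lower in bIP against aRG, with TBR1, the deep-layer neuron factor, at 3.47 (SE 0.363, edgeR adjusted p 1.97e-06) and ZBTB20, a hippocampal factor, at -1.62 (SE 0.29, edgeR adjusted p 0.000528). Of 12 diencephalic and mid-hindbrain genes tested, 1, TCF7L2, was lower in bIP against aRG, a share near that of all genes, and 0 were without bIP library 2.

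For each member, the genes with the most similar profile over the 13 libraries were ranked by the root mean square difference of centred log2 CPM. The profile of NR2F1 was nearest to STOX2 (0.159), E2F3 (0.17) and CYB5RL (0.186), whose distance compares with an SD of 0.653 for NR2F1 itself. MEIS2 was nearest to SLC15A2 (0.201), GLDC (0.233) and SMO (0.241), and OTX1 to GINS1 (0.263), LRIG1 (0.329) and CYP20A1 (0.342). EMX1 was nearest to NOS1AP (0.205), ITFG2 (0.213) and DENND1A (0.247). DMRT3 was nearest to CNTN3 (0.367), CNTN4 (0.37) and RSPO2 (0.401), and DMRTA2 to PARD3 (0.462), TSHZ1 (0.521) and FGFR1 (0.55). NR2F2, with the bIP peak, was nearest to SULF2 (0.352), RBMS1 (0.368) and ELMO1 (0.436). The absolute distance of the nearest gene was larger for SP8, with MTTP at 0.486, and for FEZF1, with ELF5 at 0.539. Their own SD was also larger, 1.51 for SP8 and 1.49 for FEZF1, beside 0.819 for NR2F2 and 0.597 for EMX1. Distances of members with unlike SD therefore do not compare directly. Among the members themselves NR2F1 and EMX1 were closest (0.367), followed by OTX1 and MEIS2 (0.379), and DMRTA2 and FEZF1 were farthest apart (1.94). All points of such a profile share 13 libraries and 4 populations, so these distances describe the libraries and carry no test.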

How the data were processed

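Raw counts per gene were deposited in 2 tables without normalization, for the human build hg38 and for gorGor6, which only that table's name mentions. Per the submitters' processing notes STAR and hg38 were used, in a role and version they do not state. Counter, annotation and strand setting are not given. Columns are named by population and number. The number of 1 neuron column matches no label, and it entered as an unnumbered N library. One unnamed gorGor6 row, with 0.00351% to 0.00768% of the counts, was not used.

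The hg38 table was tested with edgeR 4.0.16 (R 4.3.3, quasi-likelihood F-test, TMM scaling) in 1 fit of all 13 libraries with a mean per population. The filter was filterByExpr with a minimum count of 10, and adjusted p-values are Benjamini-Hochberg over all 16804 genes. Calls are adjusted p-values under 0.05. Standard errors are the log2 fold change over the root of F. The fit was tested on simulated data first. Levels are TMM-scaled CPM, given as mean ± SD, and similar profiles were sought in log2 CPM (prior count 2) among genes averaging 4 or more, or the member's own mean less 1 where that is below 4. Of the gorGor6 genes, 38520 were tested in the same way.

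Named genes are the 9 members, up to 4 called genes with the smallest p per list and comparison, the 3 nearest profiles per member and marker genes. The members and lists were chosen with earlier results of these data known. Other settings tried were no filter, the gorGor6 table, DESeq2 1.42.0 or only its size factors, the library number as a term, each pair of populations fitted alone, and each library left out. A fit with limma 3.58.1 and a quality weight per library was added after the data were seen. No 2 libraries were duplicates, as chi-square per degree of freedom was 10.6 to 92.4 within populations. All spreads cover these libraries only, and counts without molecular identifiers are not independent molecules, so limits drawn from counts cover counting error only. No sequence or position of the members is reported here, nor are some genes of the lists.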

Additional observations from a re-analysis of the deposited data

Results flagged for a closer look

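SP8 in bRG library 3 was 1.65 CPM, while the 3 other bRG libraries lay between 9.45 and 10.6 CPM. The gap to the nearest library was 0.873 of the whole range of the 4, which is above Dixon's limit for a group of that size. It was the only 1 of 18 groups of 4 libraries tested (the 9 members in bRG and in aRG) to pass that limit, and chance alone passes about 5% of groups. The same library was the lowest in bRG for FEZF1, with 0 counts, and the highest for NR2F1, NR2F2, DMRT3, OTX1 and MEIS2. It also stood apart over all genes, with the lowest quality weight of the 13 libraries, 0.145.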

How the results depend on the processing

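Of 1127 alternative values of single genes, 1029 kept direction and side of the threshold, 51 lost a call, 13 gained 1 and 34 changed sign. These values include the removal of libraries from populations outside a comparison. Such a removal changes only the shared spread, the scaling and the filter, so direction had little room to change there. None of the 29 member results called by edgeR changed sign in any alternative, and 14 were called in every one. All sign changes were in results without a call. In bRG against aRG, limma with library weights gave -0.072 for NR2F1, -0.164 for NR2F2, 0.158 for SP8 and -0.461 for DMRT3. DMRT3 there was -0.068 with the replicate block and -0.008 with a term for numbers 1 and 2 against 3 and 4, and FEZF1 was 0 without a filter and -0.162 on gorGor6. In N against bIP, NR2F1 was -0.036 and MEIS2 -0.054 with only the 2 populations, and MEIS2 -0.012 with DESeq2 size factors and -0.011 with DESeq2. Leaving out 1 library at a time, bRG against aRG ran from -0.138 to 0.205 for NR2F1, -0.27 to 0.282 for NR2F2, -0.297 to 0.212 for SP8, -0.077 to 0.331 for DMRTA2, -0.575 to 0.293 for DMRT3 and -0.708 to 0.477 for FEZF1. FEZF1 ran from -1.905 to 0.139 in bIP against bRG, and N against bIP from -0.122 to 0.234 for NR2F1 and -0.116 to 0.238 for MEIS2.

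The members called in bIP against bRG were 5 on gorGor6, where NR2F2 has no counts and DMRTA2 and SP8 lost their calls. In N against bIP they were 2 with DESeq2, among 172 genes called in all, and 1 with limma, among 103. In N against bRG fewer members were called with the replicate block and with the number term, and fewer of all genes as well. Both of these fits leave out the unnumbered N library and so rest on 1 N library. The block ended the calls of NR2F2 in bIP against bRG (adjusted p 0.065), of NR2F1, EMX1, SP8 and OTX1 in N against bRG (0.115, 0.274, 0.0888 and 0.056) and of NR2F1 and SP8 in N against aRG (0.133 and 0.0665), all by edgeR. Over the removal of each library they ran from 5 to 8 in bIP against aRG, 4 to 8 in bIP against bRG, 0 to 2 in N against bIP and 4 to 8 in N against bRG. The cause of these shifts was not tested. Whether the numbers mark shared cultures is not stated. Deviations of same-numbered bRG and aRG libraries correlated at 0.112, 0.387, -0.0127 and 0.136, and 4 of 8 matched their own number best. In bIP and aRG the values were 0.04, 0.098 and 0.143, with 3 of 6. As not every pair passed 0.1, the libraries were not treated as paired, although 3 of 4 radial glia pairs did. Scaling to total counts put the median of all genes at -0.175 to -0.232 in the N comparisons, against -0.0178 to 0.0793 with TMM, and turned no called member. Precision is limited by 2 N libraries and by low counts of SP8 and FEZF1.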

Other observations

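Some genes, chosen after their values were seen, were lowest or highest in both radial glia libraries numbered 2. Of the 9 members this held for DMRT3 alone, which was lowest, at 13.7 CPM in bRG library 2 and 14.6 CPM in aRG library 2, against 20.6 to 55.9 CPM in the other bRG and 22.9 to 42.4 CPM in the other aRG libraries. RSPO2, a Wnt agonist of the cortical hem, was lowest in the same libraries, at 17.2 CPM in bRG library 2 and 15 CPM in aRG library 2. SIX3, a homeobox factor of the rostral forebrain and eye field, was highest there, at 28 CPM in bRG library 2 and 51.8 CPM in aRG library 2, while the other radial glia libraries held 0.354 to 9.76 CPM. MEIS1, the relative of MEIS2, was also highest there, at 71.1 CPM in bRG library 2 and 69.8 CPM in aRG library 2, whereas MEIS2 was not set apart in them (335 and 338 CPM). These values were not tested.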
